A study of Mus musculus with 2 samples.

Results

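A set of 9 genes of nasal, airway and salivary gland epithelium were followed in total RNA of the mouse embryonic face: Bpifa1, Bpifb1, Cbr2, Sec14l3, Aqp5, Aqp3, Foxa1, Foxa2 and Spdef. They are 9 of the 43346 Ensembl genes measured, matched by Ensembl identifier in both libraries. The set was chosen by symbol with the TPM and counts of these libraries already known, so the levels below are a description. The series holds 1 group of 2 libraries, from facial prominence tissue of strain B6NCrl embryos at embryonic day 14.5, with no treatment or altered allele named. Each library was made from 10.0 ng of RNA. By 1 label each sample is the cranioface of 1 pup, the samples having been collected on different days, while another calls the tissue a pool of both sexes. No conditions are compared, so the results are levels and the difference between these libraries. With 2 samples an exact two-sided sign permutation cannot give a p under 0.5, and no test across embryos was made.

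The nasal cavity and the salivary glands are lined by epithelium that secretes fluid, mucus and defence proteins, and at this stage both are still forming. Bpifa1 and Bpifb1 encode secreted proteins of the bactericidal/permeability-increasing fold that coat airway surfaces. Cbr2 is a carbonyl reductase and Sec14l3 a lipid-binding protein of the Sec14 family. Aqp5 and Aqp3 are membrane channels for water, and Aqp3 also carries glycerol. Foxa1 and Foxa2 are forkhead factors that open chromatin in endodermal and glandular epithelium, and Spdef is an Ets factor of mucous cells.

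Bpifa1 and Bpifb1 lie in the same gene cluster on chromosome 2, with Bpifa5 between them. A stretch before the start of Bpifa1 and one before the inner start of Bpifb1 share a short run of bases. The 250 bases before each start are shown because these genes lie in the same cluster and differ widely in level. The first lies at chr2:154142630-154142879 and the second, before the inner of the start sites that RefSeq gives for Bpifb1, at chr2:154200130-154200379, both on the plus strand of GRCm38.p6, from RefSeq. Capitals mark a forkhead motif.
Bpifa1: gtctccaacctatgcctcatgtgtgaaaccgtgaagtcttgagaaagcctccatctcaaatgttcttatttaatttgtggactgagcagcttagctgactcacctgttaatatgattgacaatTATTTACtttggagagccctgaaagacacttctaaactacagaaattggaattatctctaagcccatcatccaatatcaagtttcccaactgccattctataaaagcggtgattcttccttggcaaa
Bpifb1: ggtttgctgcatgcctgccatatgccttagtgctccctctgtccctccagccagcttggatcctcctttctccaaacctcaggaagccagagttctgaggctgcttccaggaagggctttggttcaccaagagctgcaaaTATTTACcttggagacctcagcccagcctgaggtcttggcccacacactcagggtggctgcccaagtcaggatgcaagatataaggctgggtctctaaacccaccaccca

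The forkhead motifs, TGTTTAC and TATTTAC, were searched on both strands of windows from 250 bases before to 50 after each start after the sequences had been seen. The motifs do not overlap each other in these windows. All 9 genes had a window, 12 in all, and 4 windows held a motif, each in another gene: Bpifa1, Bpifb1, Foxa1 and Spdef. Of the 32851 windows of the same length in the RefSeq table, 6.54% held one. In Bpifa1 TATTTAC ran from 127 to 121 bases before the start, and in Bpifb1 from 110 to 104, before its inner start. The window before the outer start of Bpifb1, where the annotated gene begins, held neither motif. In Foxa1 the motif was TGTTTAC on the opposite strand, from 141 to 135 bases before the start. In Spdef it was TATTTAC on the opposite strand, from 47 to 41 bases before the start. Counted from 1 at the first base of the motif, the Bpifa1 window and the inner Bpifb1 window were identical at 14 of 15 bases, TATTTACTTTGGAGA and TATTTACCTTGGAGA, with the substitution T8C from Bpifa1 to Bpifb1. The pattern TATTTACNTTGGAGA stood in 2 of the 32851 windows, those of these 2 genes. It was written from these 2 windows, so its match to both was fixed in advance. A match describes the letters only.

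Levels spanned a wide range. Bpifa1 and Cbr2 together made up 84.8% of the summed level of the 9 genes in replicate 1 and 89.8% in replicate 2. Levels are given as TPM, transcript abundance corrected for gene length and library size, which allows genes to be compared. All 9 genes had counts in both libraries, and 6 reached 1 TPM in both, namely Bpifa1, Cbr2, Aqp3, Sec14l3, Foxa1 and Aqp5. Over all protein-coding genes 63.9% did so. Summed over the 9 genes, the level was 144.5 TPM in replicate 1 against 247 in replicate 2. In the order of the levels, Bpifa1, Cbr2 and Aqp3 kept their places in both libraries. Sec14l3, Foxa1 and Aqp5 had overlapping ranges, as did Foxa2 and Spdef.

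**Figure D1:**
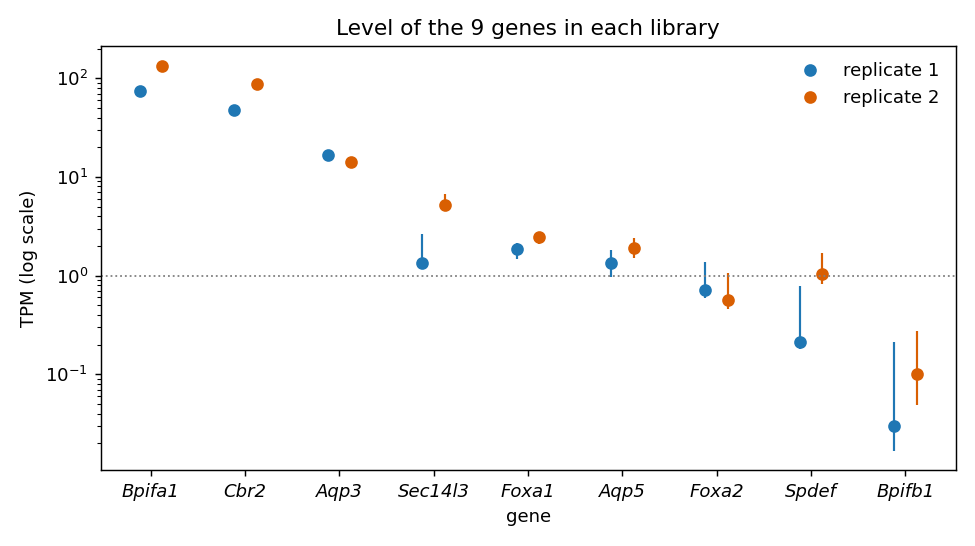
TPM of the 9 genes in each library on a log axis, ordered by mean, with replicate 1 in blue, replicate 2 in orange and the authors' interval on TPM as a vertical line (its level is not stated). Bpifa1, at 74.7 and 134 TPM, and Cbr2, at 47.8 and 87.6 TPM, lie above the rest, and Bpifb1 stays at 0.1 TPM or less; the dotted line marks 1 TPM.

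Depth was 30919488 expected counts in replicate 1 and 37738872 in replicate 2, and the synthetic spike-in RNAs took 3.22% and 5.43% of them, or 7.22% and 11.7% of the TPM. Each interval on a ratio of counts is an exact binomial one at the 95% level, on counts rounded to whole numbers. Like the detection limit used below, which is the level of 3 counts, it holds counting error alone. The facial mesenchyme genes Prrx1, Msx1, Dlx5 and Osr2 had 30.5 to 80.1 TPM in both libraries, so the markers of the labelled tissue were present. Over the 15715 genes at a mean of 1 TPM or more, the median log2 ratio of (TPM + 1) from replicate 1 to replicate 2 was −0.14 and the median ratio of CPM, counts scaled to library size, was 0.954. Library size here included the spike-ins, whose larger share in replicate 2 slightly lowers every CPM ratio. A ratio on the log2(TPM + 1) scale understates the change of low genes.

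Among the secreted proteins, Bpifa1 was abundant and Bpifb1 was at the limit of detection. Bpifa1 (chromosome 2, 154142880 to 154149219, plus strand, mm10) stood at 74.7 TPM in replicate 1 against 134 TPM in replicate 2, a mean of 104 ± 42.0 (SD, n = 2), from 1479 and 3437 counts. That level lay above 90.5% of protein-coding genes in replicate 1 and above 95.5% in replicate 2. Replicate 2 was the higher library, with a CPM ratio of 1.90 and a counting interval of 1.79 to 2.02. Bpifb1 (chromosome 2, 154190818 to 154220369) had 1 count in replicate 1 and 4 in replicate 2, or 0.03 and 0.10 TPM. For this gene 3 counts correspond to 0.0951 TPM in replicate 1 and to 0.0765 TPM in replicate 2. Its CPM ratio of 3.28 had an interval of 0.324 to 161, so no difference was detectable at this depth.

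The cluster on chromosome 2 holds 13 Bpif genes over 446 kb, all protein-coding, and Bpifa1 supplied 98.2% of their summed TPM in replicate 1 and 96.4% in replicate 2. It was the only gene of the 13 at 1 TPM in both libraries. The genes on either side of it were Bpifa3, with 0 counts in both libraries, and Bpifa5, with 2 counts in replicate 1 and 1 in replicate 2. For Bpifa3 a count of 0 allows up to 0.194 TPM in the first library and 0.150 in the second. The next highest members of the cluster lay beyond Bpifb1. Bpifb5 had 0.73 and 1.48 TPM, and Bpifb9b had 0.31 TPM from 12 counts and 2.76 TPM from 138 counts. The CPM ratio of Bpifb9b was 9.42 with an interval of 5.22 to 18.7. The split of counts between Bpifb9b and its neighbour Bpifb9a is uncertain by a few counts. The authors' posterior SD of the count was 1.53 in replicate 1 and 3.56 in replicate 2. Bpifa2, a protein of the parotid gland, had 0 counts in replicate 1 and 8 in replicate 2. Outside the cluster, the related lipid transfer genes Pltp and Lbp had 44.4 and 38.0 TPM and 6.33 and 8.95 TPM. By counts Lbp was not detectably different, with a CPM ratio of 1.03 and an interval of 0.883 to 1.21. For Pltp the CPM ratio was 0.913, with an interval of 0.850 to 0.980.

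**Figure D2:**
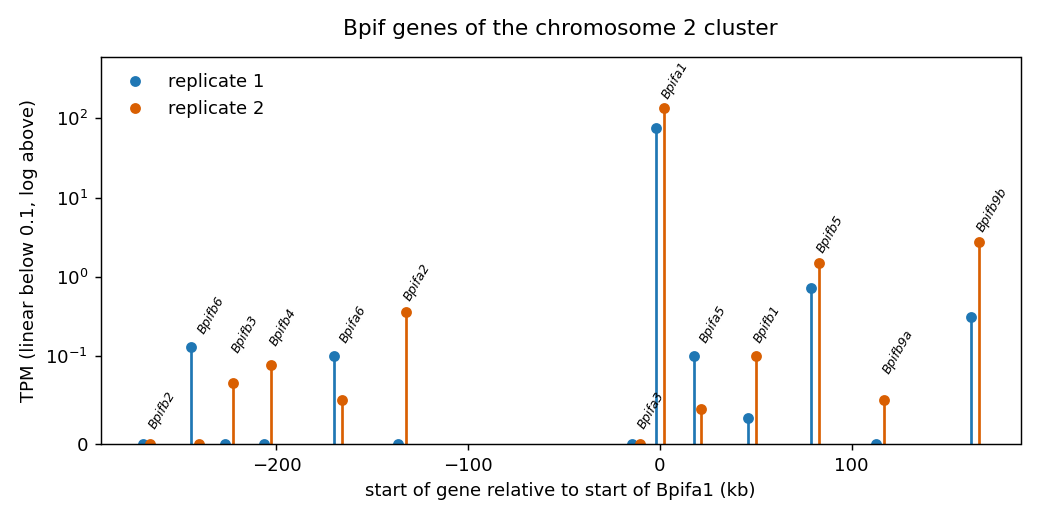
TPM of the 13 Bpif genes of chromosome 2 against the distance of their start from that of Bpifa1 in kb, replicate 1 in blue and replicate 2 in orange, with an axis that is linear below 0.1 TPM and logarithmic above. Bpifa1 stands at 74.7 and 134 TPM, while its neighbours Bpifa3 and Bpifa5 lie at 0 to 0.1 TPM.

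Cbr2 was the second most abundant of the 9 genes. Cbr2 (chromosome 11, 120729489 to 120732114, minus strand) stood at 47.8 TPM in replicate 1 against 87.6 TPM in replicate 2, a mean of 67.7 ± 28.2, from 847 and 1997 counts. The CPM ratio was 1.93, with an interval of 1.78 to 2.10 that overlaps that of Bpifa1. The level of Bpifa1 was 1.56 times that of Cbr2 in replicate 1 and 1.53 times in replicate 2. Its relatives were closer between libraries. Cbr1, a carbonyl reductase of many tissues, had 64.1 and 53.2 TPM, so that Cbr2 stood at 0.746 times Cbr1 in replicate 1 and at 1.65 times in replicate 2. Dcxr, a xylulose reductase whose gene lies 2208 bases from Cbr2, had 19.1 and 20.6 TPM, and Cbr4, a mitochondrial reductase, had 18.5 and 17.8 TPM.

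Sec14l3 was low, and it had the largest ratio between the libraries among the 6 of the 9 genes at a mean of 1 TPM. Sec14l3 (chromosome 11, 4064841 to 4077736, plus strand) stood at 1.33 TPM in replicate 1 against 5.19 TPM in replicate 2, a mean of 3.26 ± 2.73, from 68 and 342 counts. The CPM ratio was 4.12, with an interval of 3.17 to 5.43. Its log2 ratio of (TPM + 1) was 1.41, and 0.585% of the 15715 genes had a ratio as high. The neighbouring gene Sec14l4, 16817 bases away, had 0.71 TPM in replicate 1 against 0.22 in replicate 2. Sec14l1, the most abundant of the family, had 35.1 and 34.2 TPM. Ttpa, the tocopherol transfer protein, had 2.42 and 2.33 TPM, and Rlbp1, which binds retinaldehyde, 2.74 and 1.75 TPM. None of the 4 other genes of this list at a mean of 1 TPM was higher in replicate 2.

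The water channels differed in level and in their relation between libraries. Aqp3 (chromosome 4, 41092722 to 41098183, minus strand) stood at 16.5 TPM in replicate 1 against 14.0 TPM in replicate 2, a mean of 15.3 ± 1.78, from 543 and 595 counts. Aqp5 (chromosome 15, 99590782 to 99594829, plus strand), the channel of the apical membrane of gland cells, had 1.33 and 1.89 TPM, a mean of 1.61 ± 0.396, from 38 and 70 counts. The level of Aqp3 was 12.4 times that of Aqp5 in replicate 1 and 7.41 times in replicate 2. For Aqp3 the CPM ratio was 0.898 with an interval of 0.798 to 1.01, and relative to the median gene at a mean of 5 TPM the log2 ratio was −0.08. Aqp5 had a CPM ratio of 1.51, with an interval of 1.003 to 2.30 that only just leaves out 1. The genes on either side of Aqp5 are also aquaporins and were at or under the level of 3 counts. Aqp2, the channel of the kidney collecting duct, had 0 and 3 counts, and Aqp6 had 0 counts in both, which allows up to 0.0776 and 0.0600 TPM. Elsewhere in the family Aqp1, of red cells and vessels, had 16.6 and 15.5 TPM, Aqp11 3.77 and 3.50 TPM, and Aqp4, of glia and airway, 2.31 and 2.59 TPM. Of the 10 other aquaporins, 3 reached 1 TPM in both libraries. Aqp3 is also a gene of the basal epidermis, and it stood at 0.0552 times the keratin Krt14 in replicate 1 and at 0.0471 times in replicate 2.

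The transcription factors were low, with Foxa1 above Aqp5 in both libraries and Foxa2 and Spdef below it. Foxa1 (chromosome 12, 57540628 to 57546916, minus strand) stood at 1.86 TPM in replicate 1 against 2.46 TPM in replicate 2, a mean of 2.16 ± 0.424, from 113 and 194 counts. Its CPM ratio was 1.41, with an interval of 1.11 to 1.79. Foxa2 (chromosome 2, 148042877 to 148046969, minus strand) had 28 counts in each library, or 0.72 and 0.56 TPM, a mean of 0.64 ± 0.113. Its CPM ratio of 0.819 had an interval of 0.468 to 1.44. Foxa3, the remaining factor of the subfamily, was lower in replicate 2, with 1.28 and 0.43 TPM from 49 and 21 counts and a CPM ratio of 0.351 (interval 0.200 to 0.597). So the 3 Foxa genes did not share a direction: Foxa1 was higher in replicate 2, Foxa3 lower, and Foxa2 not detectably different.

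Spdef (chromosome 17, 27714352 to 27728955, minus strand) had 0.21 TPM in replicate 1 from 6 counts and 1.05 TPM in replicate 2 from 37 counts, a mean of 0.63 ± 0.594. The CPM ratio was 5.05 with a wide interval of 2.11 to 14.6. Replicate 2 alone passed 1 TPM. The epithelial Ets factors related to it were more abundant and closer between libraries. Elf3 had 8.11 and 10.6 TPM, Ehf 6.44 and 9.52 TPM, and Elf5, of mammary and other gland epithelium, 1.63 and 1.85 TPM.

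Between the libraries, 1 of the 6 genes at a mean of 1 TPM or more, Sec14l3, was at least 2-fold higher in replicate 2 on the log2(TPM + 1) scale, and none was 2-fold lower. Over all genes at that mean 1.12% were 2-fold higher and 0.694% 2-fold lower, and among genes at a mean of 1 to 5 TPM 2.88% were 2-fold higher. By the CPM ratio, Sec14l3 was again the 1 gene of the 6 at least 2-fold higher, against 2.06% of all genes. Replicate 2 had the higher TPM for 5 of the 6, the exception being Aqp3, against 24.2% of all genes. The counting interval of the CPM ratio lay wholly above 1 for 5 of the 6 and below 1 for none, where it did so for 13.8% and 33.7% of all genes. The median log2 ratio of the 6 genes was 0.57, beside −0.14 over all genes tested. Relative to the median gene at a mean of 5 TPM, which shifted by −0.15, the log2 ratio was 1.56 for Sec14l3, 1.01 for Cbr2, 0.98 for Bpifa1 and 0.91 for Spdef. On the same centred scale it was 0.46 for Aqp5, 0.42 for Foxa1, 0.24 for Bpifb1, 0.01 for Foxa2 and −0.08 for Aqp3. Earlier results of these libraries were known when the 9 genes were listed, so these counts support nothing about them as a group.

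**Figure D3:**
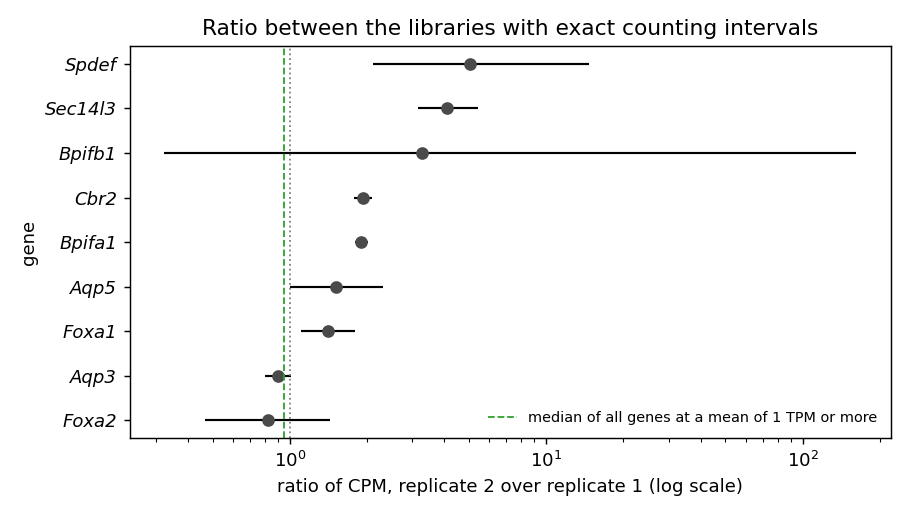
Ratio of CPM between replicate 2 and replicate 1 for the 9 genes on a log axis, with exact 95% counting intervals as horizontal lines, a dotted line at 1 and a dashed line at 0.954, the median of all genes at a mean of 1 TPM or more. Spdef and Sec14l3 are farthest to the right at 5.05 and 4.12 with intervals above 1, while the intervals of Bpifb1, Aqp3 and Foxa2 cross 1.

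Transcripts were assigned with little ambiguity between genes. The authors' posterior SD of the gene count was 0 in both libraries for 8 of the 9 genes, and 0.49 and 0.48 counts for Cbr2. No other gene of the annotation overlaps any of the 9. Of their 29 annotated transcripts 16 received counts, and the same transcript led in both libraries for 7 genes. Bpifa1-201, with 9 exons, made up 99.3% of the Bpifa1 TPM in replicate 1 and 99.8% in replicate 2. Single transcripts made up all of the TPM of Sec14l3, Aqp5, Aqp3, Foxa1 and Foxa2, with 12, 4, 6, 2 and 2 exons. For Foxa2 this was Foxa2-202, and the transcript that starts farther upstream, Foxa2-201, received 0 counts in both.

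Cbr2 used 4 transcripts. The coding Cbr2-201, with 8 exons, held 79.8% of the gene's TPM in replicate 1 and 80.2% in replicate 2. Transcripts annotated with a retained intron held 17.2% in replicate 1 and 17.6% in replicate 2. Their sum was thus nearly the same, but its parts differed: Cbr2-202 had 7.42% and 2.24%, and Cbr2-203 9.76% and 15.3%. These transcripts are short, and by counts they held 8.94% and 8.44%. The leading transcript differed between libraries for Bpifb1 and Spdef, where few counts were assigned. In Spdef, Spdef-205 had 5.28 of the 6 counts in replicate 1, and Spdef-201 had 29.9 of the 37 in replicate 2. In Bpifb1 the 1 count of replicate 1 went to Bpifb1-202, which starts at the outer site, and the 4 counts of replicate 2 to Bpifb1-201, which starts at the last base of the printed Bpifb1 stretch.

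Other secretory genes of the nose and airway were present in part. Of 21 listed genes of airway and nasal secretory epithelium 7 reached 1 TPM in both libraries and 8 had 0 counts in both. The highest were Wfdc2, a protease inhibitor of airway epithelium, at 43.7 and 48.0 TPM, Cyp2f2, a cytochrome P450 of club cells, at 28.0 and 49.0 TPM, and Lypd2 at 22.8 and 31.4 TPM. The CPM ratio of Cyp2f2 was 1.86, with an interval of 1.73 to 2.01 that overlaps those of Bpifa1 and Cbr2. Of the 10 genes at a mean of 1 TPM, 9 were higher in replicate 2, and the median log2 ratio was 0.68. The secretoglobins Scgb3a2, at 3.82 and 9.40 TPM, and Scgb1c1, at 0.71 and 2.76 TPM, were at least 2-fold higher on that scale, and Gabrp, a GABA receptor subunit of secretory epithelium, was 2-fold lower at 3.35 and 0.79 TPM. Like Scgb3a2, Scgb1c1 and Gabrp, the next genes were named after their values were seen. Scgb1a1, the club cell secretoglobin, had 0 and 1 counts, and its relative Scgb3a1 and the odorant-binding proteins Obp1a, Obp1b, Obp2a and Obp2b had 0 in both. Muc5b, the main gel-forming airway mucin, had 0.06 and 0.12 TPM.

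Genes of mucus formation were mostly low. Of 16 matched genes 7 reached 1 TPM in both, led by Creb3l1, a secretory pathway factor that bone also expresses, at 34.5 and 43.1 TPM. Agr2, a disulfide isomerase that mucin folding needs, had 2.67 and 6.0 TPM, with a CPM ratio of 2.39 (interval 1.62 to 3.59). Galnt12, which starts mucin-type glycosylation, had 5.15 and 3.44 TPM. Of the 7 genes 5 were higher in replicate 2, with a median log2 ratio of 0.37. None was 2-fold higher on the log2(TPM + 1) scale, and 1, Agr2, was by the CPM ratio. The counting interval of the CPM ratio lay wholly above 1 for 6 of the 7 and below 1 for 1, against 13.8% and 33.7% of all genes. Muc4 was lower in replicate 2 by TPM, at 1.41 and 1.19, but higher by CPM, with a ratio of 1.41 and an interval of 1.08 to 1.83.

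Genes of the salivary list were present in part too. Of 13 matched genes 4 reached 1 TPM in both, and 4 had 0 counts in both, Prol1, Pip, Dcpp2 and Cst10. Dcpp3 and Dcpp1, demilune cell and parotid proteins, had 3.10 and 11.9 TPM and 1.84 and 5.18 TPM, both at least 2-fold higher in replicate 2. As near-copies their counts are uncertain, though only by a posterior SD of up to 3.61 counts in replicate 2. There Dcpp3 had 155 counts and Dcpp1 68.4. Amy1, the salivary amylase, had 3.71 and 2.53 TPM, from 106 and 87.6 counts. Its counts are uncertain too, with a posterior SD of 17.5 in replicate 1 and 13.7 in replicate 2. Smgc, a mucin-like product of the submandibular gland named after its values were seen, had 2 and 20 counts. By these lists 7 of 21 nasal and airway genes and 4 of 13 salivary ones reached 1 TPM in both libraries. Not all of the listed genes encode secreted products, and the difference of these shares was not tested.

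Genes of gland fluid and ion transport were present in part. Of 13 genes for ion transport 8 reached 1 TPM in both, and none of these was 2-fold apart by log2(TPM + 1) or by CPM, with a median log2 ratio of −0.01. Over all protein-coding genes 63.9% reached 1 TPM in both. The counting interval of the CPM ratio lay wholly above 1 for 4 of the 8 and below 1 for 1. The rest of the list, Cftr, Chrm1, Chrm3, Slc26a4 and Kcne1, stayed at 0.82 TPM or less in both libraries. Their intervals lay below 1 for Cftr, Chrm1 and Chrm3, across 1 for Slc26a4 and above 1 for Kcne1. Atp1b1, a sodium pump subunit, had 29.9 and 33.4 TPM, Ano1, a calcium-activated chloride channel, 16.5 TPM in each, and Slc12a2, the sodium, potassium and chloride cotransporter, 14.0 and 13.8 TPM. Of 22 genes of gland and airway epithelium development 20 reached 1 TPM in both and 7 of these 20 were higher in replicate 2. Krt5, of basal cells, had 124 and 108 TPM, the growth factor receptor Fgfr2 98.1 and 82.1 TPM, and Krt19, of simple and gland epithelium, 67.8 and 93.1 TPM.

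Markers of ciliated cells were also higher in replicate 2. All 14 listed genes of motile cilia were higher in replicate 2, and their summed level was 27.8 TPM in replicate 1 against 61.9 in replicate 2. Of the 10 at a mean of 1 TPM, 3 were 2-fold higher on the log2(TPM + 1) scale (Rsph1, Ccdc40 and Tmem212) and 8 by the CPM ratio, and the median log2 ratio was 0.80. Foxj1, the master regulator of motile cilia, had 5.75 and 10.5 TPM, Tekt1, of the axoneme, 5.04 and 9.52 TPM, and Ccdc40, needed for inner dynein arms, 4.01 and 9.12 TPM. Bpifa1 stood at 13.0 times Foxj1 in replicate 1 and 12.8 times in replicate 2, and Cbr2 at 8.32 and 8.39 times. These steady multiples hold for Foxj1, with a CPM ratio of 1.93. They would fall in replicate 2 against a gene such as Ccdc40, with a CPM ratio of 2.29. Sec14l3 stood at 0.231 and 0.497 times Foxj1, so it differed more between libraries than Foxj1 did. The part of ciliated cells in the higher levels of replicate 2 was not tested, and in tissue RNA more cells of a type and more RNA per cell cannot be told apart.

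General epithelial genes went both ways, and those given here were chosen after their values were seen. The adhesion genes Epcam and Cdh1 had 71.8 and 55.5 TPM and 38.3 and 28.4 TPM. The keratins of simple epithelium were higher in replicate 2, with Krt8 at 60.9 and 87.3 TPM, Krt7 at 19.5 and 23.9 TPM and Krt18 at 50.7 and 54.7 TPM, beside Krt19 above. Relative to Epcam, Bpifa1 stood at 1.04 in replicate 1 and 2.42 in replicate 2, and Cbr2 at 0.666 and 1.58. Of 14 genes of the surface epidermis 10 were higher in replicate 2, with a summed level of 1357 and 1729 TPM. Those 2-fold higher on the log2(TPM + 1) scale were Krt13, Krt4 and Krt6a, keratins of stratified mucosa or stressed skin, and Lor and Cnfn, of the cornified layer. Krt13 had 7.73 and 46.1 TPM and Krt4 53.7 and 110 TPM. Its most abundant genes were closer, with Krtdap at 344 and 420 TPM, Krt14 at 299.6 and 297 TPM and Perp at 216 and 185 TPM. Of 10 genes listed for olfactory supporting cells and Bowman's glands 6 reached 1 TPM in both, and 5 of these 6 were higher in replicate 2. The 5 include Omp, at 2.21 and 3.63 TPM, which marks olfactory neurons and not these cells. None of the 6 was 2-fold higher on the log2(TPM + 1) scale, and 1, Sult1c1 at 1.22 and 2.72 TPM, was by the CPM ratio. Among them, Cyp2g1, a cytochrome of that epithelium, had 3.79 and 4.68 TPM, and Fmo2 2.70 and 3.88 TPM. Sox9, which cartilage also expresses, had 50.01 and 36.5 TPM. The part of these cells in the differences was not tested.

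**Figure D4:**
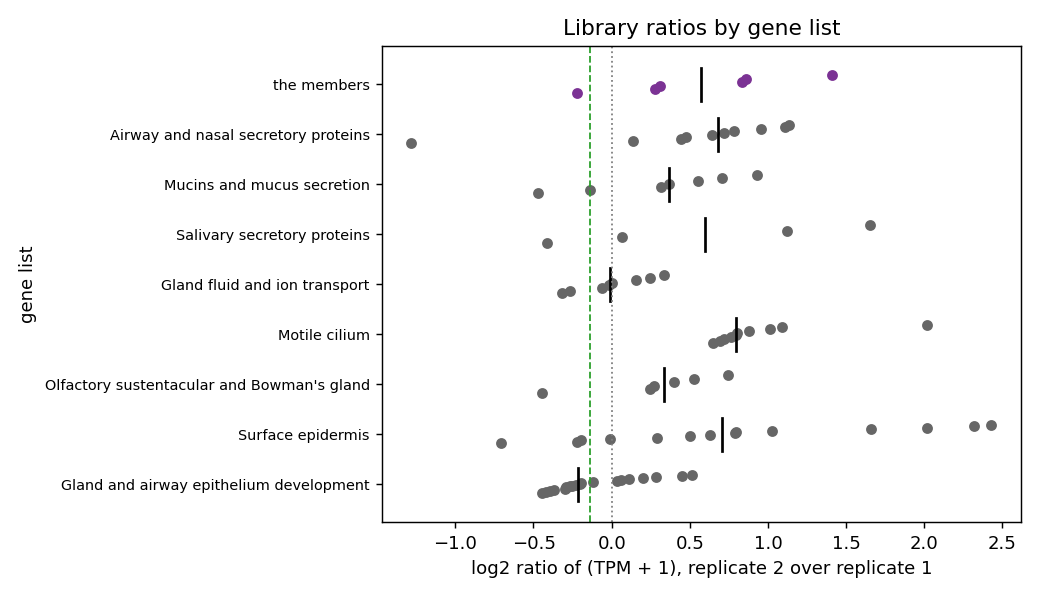
Log2 ratio of (TPM + 1) between replicate 2 and replicate 1 for each gene at a mean of 1 TPM or more, by list, with the 6 members in purple, other genes in grey, black bars at the median of each list, a dotted line at 0 and a dashed line at −0.14, the median of all genes. The motile cilium list has a median of 0.80 with every gene right of 0, and gland fluid and ion transport genes lie around −0.01.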

How the data were processed

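The deposited tables give expected counts, an estimate of the reads from each gene or transcript without scaling for depth, per the file headers. They were rounded to whole numbers for intervals and scaling factors. TPM and FPKM values were deposited by the authors beside them, per the file headers, and the transcript share is a percent that the authors computed within each gene from TPM. The deposited interval on TPM and the posterior SD, both in the units of the signal they describe, are the authors' too. Files name build mm10 and annotation M4, per the companion texts; the aligner is not given in the sources used here. The 2 libraries were quantified separately.

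GENCODE M21, of that build too, supplied symbols, positions and transcript types, and 98.0% of 43346 Ensembl genes matched a symbol. Of the listed genes Cetp and Muc16 were not used here. Ratios used log2(TPM + 1) and genes at a mean of 1 TPM. Scaling factors came from edgeR 4.0.16 and DESeq2 1.42.0, used for nothing else, with R 4.3.3, Python 3.11.15, pandas 2.3.3, numpy 2.4.6, scipy 1.17.1 and matplotlib 3.10.9. The ratio rule and the intervals were tried on simulated counts with known folds and counting error alone. The simulation held no other variation between embryos or libraries. The samples are labelled as separate biological replicates and share a donor record in the labels. Technical and biological parts of the spread between them cannot be told apart.

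The members, lists and rules were chosen with earlier results of these data known. The rule names all 9 members, the 3 other genes of highest mean TPM in each list and relatives of a member. With 2 samples no likeness of pattern is defined, so none is given. Alternatives were other thresholds, pseudocounts, units, scalings and filters and each replicate left out.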

Additional observations from a re-analysis of the deposited data

How the results depend on the processing

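The number of the 9 genes expressed in both libraries was 6, 3 at a threshold of 2 TPM and 4 by FPKM. It ranged from 6 to 7 without either replicate. The number 2-fold higher in replicate 2 was 1, became 2 with ratios centred on the median gene, which added Cbr2 at 1.01, and 0 among genes at a mean of 5 TPM or more, which leaves out Sec14l3. The median log2 ratio was 0.57, and 0.84 among genes at a mean of 5 TPM or more and 0.31 with no filter on low values, since other genes enter it. TPM shifted the median gene at a mean of 5 TPM by −0.15, and edgeR and DESeq2 scaling left it at 0.00. Under all 6 alternatives for ratios, Bpifa1, Cbr2, Sec14l3, Aqp5, Foxa1 and Spdef kept a higher level in replicate 2 and Aqp3 a lower one. Foxa2 ranged from −0.36 to 0.01. Spdef ranged from 0.58 to 2.27 and Sec14l3 from 1.28 to 1.96, with the larger values at smaller pseudocounts. No paired analysis was possible because there is 1 group. Depth limits Bpifb1, at 1 and 4 counts, and the transcript shares of Spdef.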

Other observations

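Other tissues that use Foxa factors were looked at by their markers. Of 8 genes of lung alveoli and thyroid, 1 reached 1 TPM in both libraries. It was Tg, the thyroglobulin, at 2.70 TPM in replicate 1 against 6.93 in replicate 2, with a CPM ratio of 3.26 and a counting interval of 2.72 to 3.91. The thyroid regulators Nkx2-1 and Pax8 had 0.60 and 0.75 TPM each, from 26 and 41 counts for Nkx2-1 and 32 and 43 for Pax8. Of 8 notochord and floor plate genes, 4 reached 1 TPM in both and none of them was higher in replicate 2. Spon1, an extracellular protein of the floor plate that other tissues share, had 25.0 and 23.5 TPM, the Bmp antagonist Chrd 8.99 and 6.79 TPM, and the guidance cue Ntn1 5.04 and 3.44 TPM.

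Among red cell and vessel genes that could supply Aqp1, the glucose transporter Slc2a1 had 93.5 and 75.1 TPM and the haem synthesis gene Alas2 67.4 and 75.0 TPM. In the cilium list Tmem212, chosen after its values were seen, had 2 and 58 counts. Sntn, of the cilium tip, had 0 counts in replicate 1 and 29 in replicate 2, where a count of 0 allows up to 0.133 TPM in replicate 1 and the level in replicate 2 was 1.00 TPM.

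The authors' interval on TPM is not centred on the deposited TPM. For Sec14l3 in replicate 1 the TPM of 1.33 lies below the interval of 1.35 to 2.67, and in replicate 2 the TPM of 5.19 lies inside its interval of 4.99 to 6.75. For 4 of the 9 genes the intervals of the libraries did not overlap. The share of all genes with such intervals was not computed, so this count says nothing about the 9 as a set.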
